A study of Mus with 3 samples.

Results

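The 8 genes described here cover the making, oxidation and export of cholesterol: Hmgcs1, Idi1, Fdps and Sqle of the synthesis pathway, the oxysterol enzyme Ch25h, and the efflux genes Abca1, Abcg1 and Apoe. They were taken by symbol from the 27998 genes of the matrices, and 8 of 8 were found. Their levels were read in macrophages, alveolar type 2 cells and fibroblasts of whole mouse lung. Single-cell RNA was measured in 3 libraries of female mice aged 6 to 12 weeks. WT PBS came from wild-type mice challenged with PBS, and WT OVA from wild-type mice challenged with ovalbumin, an allergen used to model asthma. DJ-1 KO OVA, also called the knockout library here, came from ovalbumin-challenged DJ-1 KO mice, which lack the redox-sensitive protein encoded by Park7. Each library held pooled lung cells of 3 mice, so all groups were 1 library, no difference has a replicate check, and no test between conditions was possible. The strain, the dosing scheme and the part of Park7 that was deleted are not given in the sources used here.

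Cells make cholesterol from acetyl-CoA through mevalonate, isoprenoids and squalene. The transcription factor SREBP2, encoded by Srebf2, raises the genes of this route when sterol in the endoplasmic reticulum is low, and oxysterols restrain it. Oxysterols such as the product of Ch25h also activate the nuclear receptors LXR, whose targets include Abca1, Abcg1, Apoe and Mylip, so that synthesis and export are usually set in opposite directions. In the lung, alveolar macrophages clear surfactant lipid and depend on Abcg1 for cholesterol export, while alveolar type 2 cells make lipid for surfactant.

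On the GRCm38.p6 assembly, Hmgcs1 (ENSMUSG00000093930) lies at chr13:119690351-119708260 and Idi1 (ENSMUSG00000058258) at chr13:8885606-8892396. Fdps (ENSMUSG00000059743) lies at chr3:89093588-89101967 and Sqle (ENSMUSG00000022351) at chr15:59315092-59331193. Ch25h (ENSMUSG00000050370) lies at chr19:34473783-34475148. Abca1 (ENSMUSG00000015243) lies at chr4:53030789-53159988, Abcg1 (ENSMUSG00000024030) at chr17:31057694-31117984 and Apoe (ENSMUSG00000002985) at chr7:19696244-19701310. Counts were per gene, so exons and transcript ends could not be separated.

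The libraries held 17339386 to 26548669 UMIs (unique molecules) in 4556 to 6406 barcodes, and 3850, 5930 and 4438 cells were kept in the order WT PBS, WT OVA, knockout. Park7 stood at 136 CPM, 100.3 CPM and 20.8 CPM in the kept cells of these libraries. These 3′ counts may come from outside the deleted part, so the remaining UMIs check the label only in part. WT PBS and the knockout library shared 372 barcodes, against 6 and 5 for the other pairs of libraries. The smaller cell of each of those 372 barcodes was left out, which removed 306 cells of WT PBS and 66 of the knockout library. Some values that move when this choice is changed are given beside the result or in the last section, but not all. With both cells of these barcodes left out, 6 of 44 ratios of single genes, Ch25h in macrophages not among the 44, left their 95% interval. Levels are CPM, the UMIs of a gene scaled to 1000000 UMIs of the cell class in 1 library. Where 3 values follow each other unnamed, they are in the order WT PBS, WT OVA, knockout. Brackets hold 95% intervals that cover counting error only, exact Poisson for a level, exact conditional binomial for a ratio and Clopper-Pearson for a share. A gene is called higher or lower past 1.5-fold with at least 20 UMIs over both libraries.

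The classes were rebuilt from clusters made without these genes and named from marker lists. Alveolar macrophage-like cells numbered 59, 188 and 260 in the 3 libraries, alveolar type 2-like cells 302, 769 and 296, and fibroblast-like cells 339, 434 and 274. The marker lists gave these classes their names, so marker levels describe them and are no separate check. Chil3 stood at 12595, 47388 and 87258 CPM in the macrophages, Sftpc at 165895, 122713 and 86868 CPM in the type 2 cells, and Col1a1 at 2989, 2572 and 3432 CPM in the fibroblasts. All 12 alveolar macrophage markers were detected in the macrophages of each library. They summed to 19906, 54426 and 94595 CPM, most of it Chil3, so the rise of the sum does not describe the other markers. The 6 eosinophil markers, which share Siglecf with this list, went the other way in the macrophages. They summed to 162, 108 and 26.6 CPM, with 1, 2 and 2 detected. Interstitial macrophage-like cells, which express C1qa, numbered 30, 46 and 35, too few for a ratio. All 8 genes passed the minimum of 20 UMIs in both macrophage comparisons, 6 and 7 of 8 passed in type 2 cells, and 7 and 8 of 8 in fibroblasts.

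**Figure D1:**
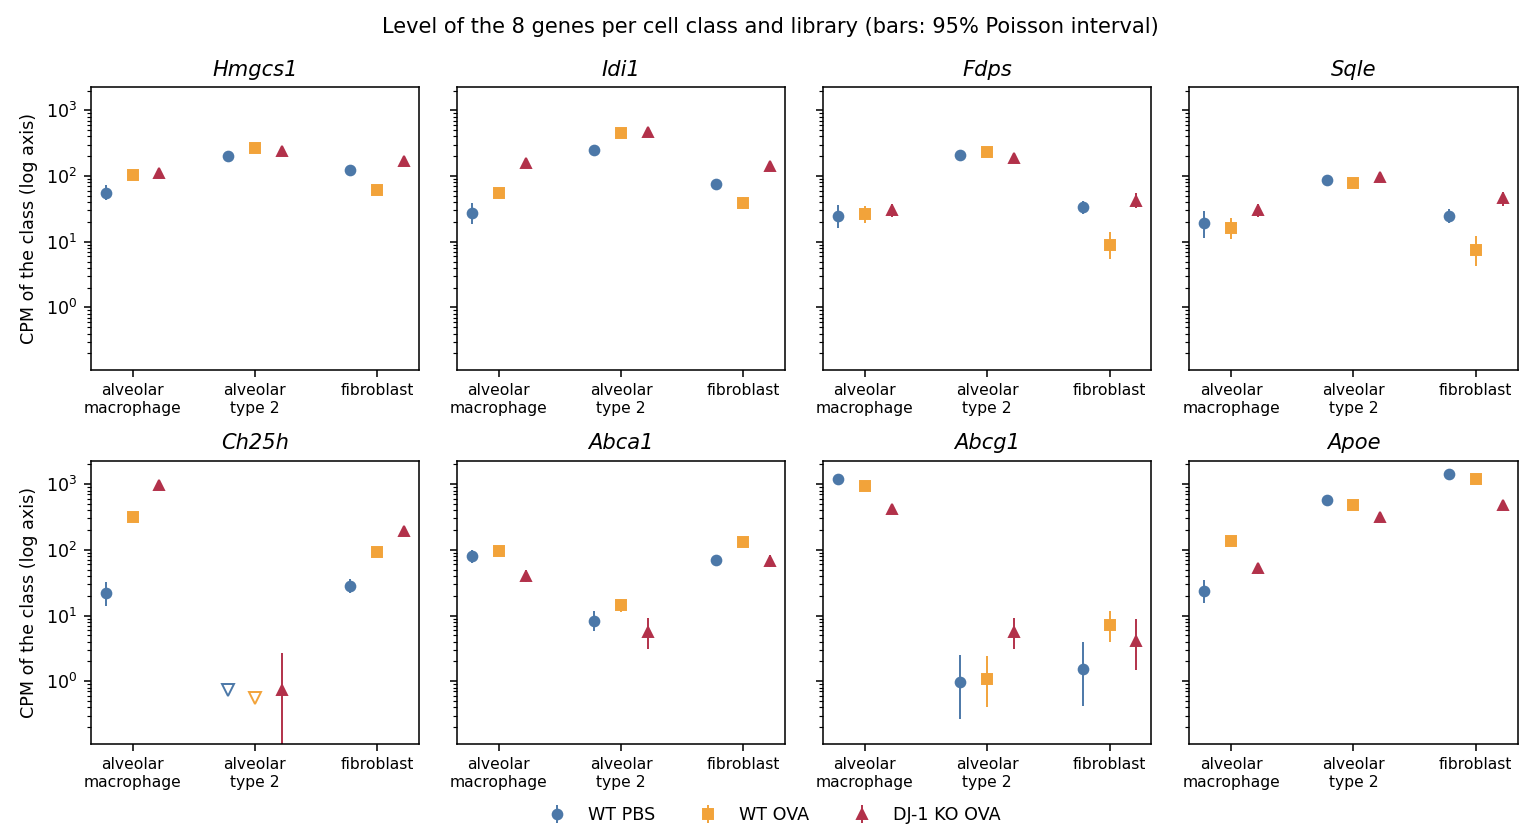
Level of each of the 8 genes in CPM of the class (log axis) in alveolar macrophage-like, alveolar type 2-like and fibroblast-like cells, 1 point per library with its 95% Poisson interval; open triangles pointing down mark the level of 3 UMIs where 0 were counted. Ch25h climbs in both macrophages (21.8, 316 and 982 CPM) and fibroblasts (28.3, 93.9 and 193 CPM), and the 4 synthesis genes of fibroblasts are lowest in WT OVA.

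The clearest pattern of the synthesis genes was in fibroblasts, where all 4 had their lowest level in WT OVA and their highest in the knockout library. Hmgcs1, which makes HMG-CoA at the entry of the mevalonate route, stood at 122 CPM (109 to 136) in WT PBS, 62.3 CPM (52.1 to 73.9) in WT OVA and 172 CPM (151 to 195) in the knockout library. Idi1, which interconverts the isoprenoid building blocks, stood at 75.8 CPM (65.6 to 87.1), 39.2 CPM (31.2 to 48.6) and 144 CPM (125 to 165). For both genes the 3 intervals did not overlap. Fdps, which joins these blocks to farnesyl diphosphate, stood at 33.3 CPM (26.7 to 41.1), 8.97 CPM (5.40 to 14.0) and 42.3 CPM (32.5 to 54.3). Sqle, which oxidises squalene at the start of the sterol branch, stood at 24.9 CPM (19.2 to 31.7), 7.55 CPM (4.32 to 12.3) and 45.7 CPM (35.5 to 58.1). The Fdps intervals of WT PBS and the knockout library overlapped, and the other pairs of intervals of these genes did not.

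As ratios, WT OVA fibroblasts held 0.510 of the WT PBS level of Hmgcs1 (0.413 to 0.627), 0.517 of Idi1 (0.395 to 0.671), 0.269 of Fdps (0.155 to 0.446) and 0.304 of Sqle (0.164 to 0.531). The knockout library level was 2.76-fold that of WT OVA for Hmgcs1 (2.23 to 3.44), 3.68-fold for Idi1 (2.84 to 4.80), 4.72-fold for Fdps (2.79 to 8.36) and 6.06-fold for Sqle (3.47 to 11.2). The Fdps and Sqle ratios rest on 19 and 16 UMIs in WT OVA. All 4 synthesis genes were thus called lower and then higher, where 10.00% of 10475 genes were called lower in the first comparison and 13.3% of 9935 were called higher in the second. The median log2 ratio of the 4 genes was -1.35 for WT OVA over WT PBS and 2.06 for knockout over WT OVA, and that of all genes was -0.02 and 0.09. Both comparisons share the WT OVA library, so a low value there lowers the first ratio and raises the second. Fdps was also lower in WT OVA than WT PBS in CD4 T cell-like cells, at 0.522 (0.317 to 0.831). In type 2 cells it was 1.10-fold (1.01 to 1.20). Idi1 was also higher in the knockout library than WT OVA in CD4 T cell-like (2.11-fold, 1.37 to 3.26), monocyte-like (2.50-fold, 1.30 to 4.72) and migratory DC-like cells (1.66-fold, 1.20 to 2.29). In type 2 cells Idi1 was 1.07-fold (0.999 to 1.15). A shift common to whole libraries was not tested. The 9 alveolar type 2 markers, 9 of 9 detected in each library, summed to 242, 413 and 188 CPM in the fibroblasts of the 3 libraries against 221905, 172352 and 135542 CPM in type 2 cells, and the part of such RNA in the fibroblast values was not tested. Other marker lists in the fibroblasts were highest in the knockout library. The 6 cycling markers (5, 5 and 6 detected) summed to 3.06, 4.25 and 75.1 CPM, with 1, 2 and 19 UMIs of Mki67. The 7 pericyte markers (5, 6 and 6 detected) summed to 173, 281 and 490.2 CPM, and the 12 alveolar macrophage markers (8, 9 and 9 detected) to 18.8, 70.3 and 197 CPM. Their part in the synthesis gene ratios was not tested.

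More of the pathway had the same order in fibroblasts. Of the 20 genes of cholesterol synthesis, a list that holds the 4, 19 had enough UMIs for WT OVA over WT PBS, and 10 were lower and 0 higher. For knockout over WT OVA, 17 had enough, and 14 were higher and 0 lower. Over all genes, 10.00% were lower in the first comparison and 13.3% higher in the second, and both comparisons share the WT OVA library. Msmo1, a sterol demethylation enzyme, stood at 77.7, 36.3 and 109 CPM in the 3 libraries. The median log2 ratio of the list was -0.64 and 1.22.

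Genes of SREBP control and cholesterol uptake in fibroblasts held both directions. Of 12 counted list members, 2 were higher and 2 lower in WT OVA than WT PBS, and 3 were higher and 2 lower in the knockout library than WT OVA. Over all genes, 7.46% were higher and 10.00% lower in the first comparison and 13.3% and 8.09% in the second, and no result about the list is read from such small counts. Stard4, a cholesterol carrier protein, was lowest in WT OVA with 26.8, 14.2 and 43.0 CPM. Mylip, an LXR target, had the opposite order with 17.2, 28.3 and 11.6 CPM. Lipa, the lysosomal lipase that frees cholesterol from esters, stood at 98.0, 96.3 and 62.1 CPM.

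Fibroblasts were not 1 population, and the pattern was read again within sub-clusters. The share of all genes past 1.5-fold was computed for whole classes only, so counts within sub-clusters are descriptions. Cells led by Inmt and Sparcl1 made up 49.3% to 58.8% of the class, and cells led by Lum and Pi16 20.5% to 23.4%. In the Inmt cells, Idi1 stood at 77.3, 28.3 and 129 CPM and Hmgcs1 at 108, 48.5 and 154 CPM, with 9 of 17 counted synthesis genes lower in WT OVA than WT PBS and 13 of 16 higher in the knockout library than WT OVA. The Lum cells had few UMIs, and Hmgcs1 stood there at 62.7, 54.1 and 177 CPM and Idi1 at 21.4, 19.7 and 168 CPM. Their WT OVA over WT PBS ratios were 0.864 for Hmgcs1 (0.487 to 1.5) and 0.918 for Idi1 (0.330 to 2.39), intervals that hold no difference as well as the class ratio. Fdps gave 15 and 2 UMIs in WT PBS and WT OVA there (24.7 and 4.92 CPM), and Sqle 9 and 0 UMIs, with 0 to 9.07 CPM as the interval of the latter. In the knockout library Sqle stood there at 34.8 CPM on 12 UMIs. Fdps stood there at 8.69 CPM on 3 UMIs (1.79 to 25.4), below WT PBS with overlapping intervals. Of 5 counted synthesis genes in the Lum cells, 0 were higher and 1 lower in WT OVA than WT PBS. In these Lum cells 6 of 7 counted synthesis genes were higher in the knockout library than WT OVA. In the smaller group led by Mmp2 and Crispld2 (32, 66 and 17 cells), Hmgcs1 stood at 322, 142 and 332 CPM, again lowest in WT OVA. Idi1 stood there at 182, 107 and 219 CPM and Fdps at 76.6, 9.45 and 122 CPM. Sqle, at 102, 18.9 and 61.2 CPM, was also lowest in WT OVA but highest in WT PBS, whose interval overlapped that of the knockout library. The shallow cells led by Cdo1 and Gpx3 (63, 49 and 32 cells) did not repeat the pattern for each gene. Idi1 stood there at 57.2, 59.4 and 76.8 CPM on 8, 3 and 3 UMIs, and Hmgcs1 gave 13, 0 and 4 UMIs. Fdps, with 1 UMI in each library, stood at 7.15, 19.8 and 25.6 CPM.

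In alveolar macrophages the synthesis genes did not share 1 direction. Hmgcs1 stood at 56.0 CPM (42.6 to 72.2) in WT PBS, 104 CPM (90.3 to 119) in WT OVA and 111 CPM (98.2 to 126) in the knockout library. Idi1 stood at 27.5 CPM (18.4 to 39.5), 55.4 CPM (45.4 to 66.9) and 158 CPM (142 to 175). Hmgcs1 was thus low in WT PBS with overlapping intervals in the 2 ovalbumin libraries, whereas the 3 intervals of Idi1 were apart. Fdps stood at 24.7 CPM (16.1 to 36.2), 26.2 CPM (19.5 to 34.4) and 30 CPM (23.5 to 37.9), and the intervals overlapped. Sqle stood at 19.0 CPM (11.6 to 29.3), 16.4 CPM (11.2 to 23.2) and 30 CPM (23.5 to 37.9), with the highest level in the knockout library.

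For WT OVA over WT PBS in macrophages, Hmgcs1 was 1.86-fold (1.39 to 2.53) and Idi1 2.01-fold (1.33 to 3.15), and 2 of 4 synthesis genes were called higher where 10.1% of 8613 genes were. For knockout over WT OVA, Idi1 was 2.85-fold (2.29 to 3.56) and Sqle 1.83-fold (1.19 to 2.87), and again 2 of 4 were called higher where 12.3% of 9209 genes were. The median log2 ratio of the 4 genes was 0.49 and 0.54, and that of all genes -0.11 and -0.07. Of the wider synthesis list, 9 of 18 counted genes were higher and 0 lower in WT OVA than WT PBS, and 8 of 19 were higher and 0 lower in the knockout library than WT OVA. Cyp51, the lanosterol demethylase, stood at 27.5, 64.6 and 165 CPM and Msmo1 at 24.7, 58.5 and 106 CPM in the 3 libraries. Hsd17b7, of the same late sterol steps, stood at 6.64, 11.8 and 35.5 CPM, and Fdft1, which makes squalene, at 12.3, 13.3 and 35.1 CPM. These genes were named by their ratios within the list, so their size is a description.

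Most macrophages of the last library belonged to another sub-cluster than those of the other 2. Cells led by Ear1 and Ear2 made up 89.8% of the class in WT PBS, 75.5% in WT OVA and 6.92% in the knockout library, and cells led by Mmp12 and Ccl24 made up 10.2%, 24.5% and 93.1%. In the Mmp12 cells Idi1 stood at 48.7 CPM (29.7 to 75.2, 46 cells) in WT OVA and 171 CPM (154 to 189, 242 cells) in the knockout library. In the Ear1 cells it stood at 57.2 CPM (45.9 to 70.4, 142 cells) in WT OVA and 56.0 CPM (31.3 to 92.4, 18 cells) in the knockout library. The Idi1 intervals of the 2 libraries were thus apart in the Mmp12 cells and overlapped in the few Ear1 cells. Hmgcs1 in the Ear1 cells stood at 110.5 CPM (94.5 to 128) in WT OVA and 56.0 CPM (31.3 to 92.4) in the knockout library, intervals that were apart. In the Mmp12 cells Hmgcs1 stood at 80.4 CPM (55.3 to 113) and 118 CPM (104 to 134), with overlapping intervals. The Ear1 value of Hmgcs1 in the knockout library rests on 15 UMIs in 18 cells, so no opposite order of the sub-clusters is read. With under 50 cells on 1 side of each pair, no ratio within a sub-cluster was drawn for this comparison. Within the Ear1 cells, WT OVA over WT PBS was 2.13-fold for Hmgcs1 (1.54 to 3.01) and 2.36-fold for Idi1 (1.47 to 3.96), with 9 of 17 counted synthesis genes higher and 0 lower. No share over all genes was computed within the Ear1 cells.

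Alveolar type 2 cells had the highest level of all 4 synthesis genes among the named classes with at least 50 cells of each library. Idi1 stood at 246 CPM (231 to 262) in WT PBS, 445 CPM (427 to 463) in WT OVA and 476 CPM (450.2 to 503) in the knockout library. Hmgcs1 stood at 205 CPM (192 to 219.8), 269 CPM (255 to 283) and 243 CPM (225 to 263). Idi1 was low in WT PBS alone, and Hmgcs1 was lowest there. Fdps stood at 209 CPM (195 to 224), 231 CPM (218 to 244) and 189 CPM (173 to 207), and Sqle at 87.6 CPM (78.8 to 97.3), 77.2 CPM (70.0 to 85.0) and 95.2 CPM (84.0 to 108). Their spread over the libraries stayed within 1.5-fold. Idi1 was the 1 synthesis gene called, 1.81-fold in WT OVA over WT PBS (1.68 to 1.95), where 8.43% of 10752 genes were called higher and 6.96% lower. In knockout over WT OVA it was 1.07-fold (0.999 to 1.15), and 0 of 4 were called either way, where 17.8% of 10682 genes were called higher and 8.60% lower. The median log2 ratio of all genes was 0.11 there.

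Of the wider synthesis list in type 2 cells, 8 of 20 genes were higher and 0 lower in WT OVA than WT PBS, and 0 were higher and 2 lower in the knockout library than WT OVA. Pmvk, a mevalonate kinase step, stood at 216, 412 and 285 CPM, and Mvd, the decarboxylase that follows it, at 42.0, 76.3 and 67.1 CPM. Insig1, the sterol-sensing protein that holds SREBP back and is itself an SREBP target, stood at 233, 411 and 223 CPM, so that the knockout library held 0.542 of the WT OVA level (0.495 to 0.594). Nsdhl, a late sterol enzyme, stood at 39.3, 66.2 and 40.4 CPM and Npc1, which exports cholesterol from lysosomes, at 220.2, 252 and 157 CPM. Of 11 counted genes of SREBP control and uptake, 2 were higher in WT OVA than WT PBS and 2 were lower in the knockout library than WT OVA, counts too small to read against the shares over all genes given above.

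The type 2 value for the knockout library also joins sub-clusters of unlike size. Cells led by Sftpc and Sftpb made up 97.7%, 86.2% and 18.9% of the class, and cells led by Slc26a4, Chia1 and Il33 made up 2.32%, 13.8% and 81.1%. Idi1 was lower in the Slc26a4 cells of each library, with 479 CPM in the Sftpc cells and 295 CPM in the Slc26a4 cells of WT OVA, and 807 and 431 CPM in those of the knockout library. Within the Sftpc cells the knockout library was 1.68-fold the WT OVA level of Idi1 (1.47 to 1.92), and within the Slc26a4 cells 1.46-fold (1.28 to 1.67), against 1.07-fold in the class as a whole. Hmgcs1 was 1.23-fold in the Sftpc cells (1.01 to 1.49) and 1.24-fold in the Slc26a4 cells (1.05 to 1.47), against 0.906 in the class (0.825 to 0.994). Of 20 synthesis genes, 2 and 3 were higher and 0 lower within these sub-clusters, where the class gave 0 higher and 2 lower. These small counts have no share over all genes of the sub-clusters beside them, and no result is read from them. For Hmgcs1, Idi1 and Fdps the class ratio was below the ratio in either sub-cluster, Fdps with 0.820 against 0.95 and 1.09. For Sqle the class ratio of 1.23 lay between 1.19 in the Sftpc cells and 1.58 in the Slc26a4 cells.

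**Figure D2:**
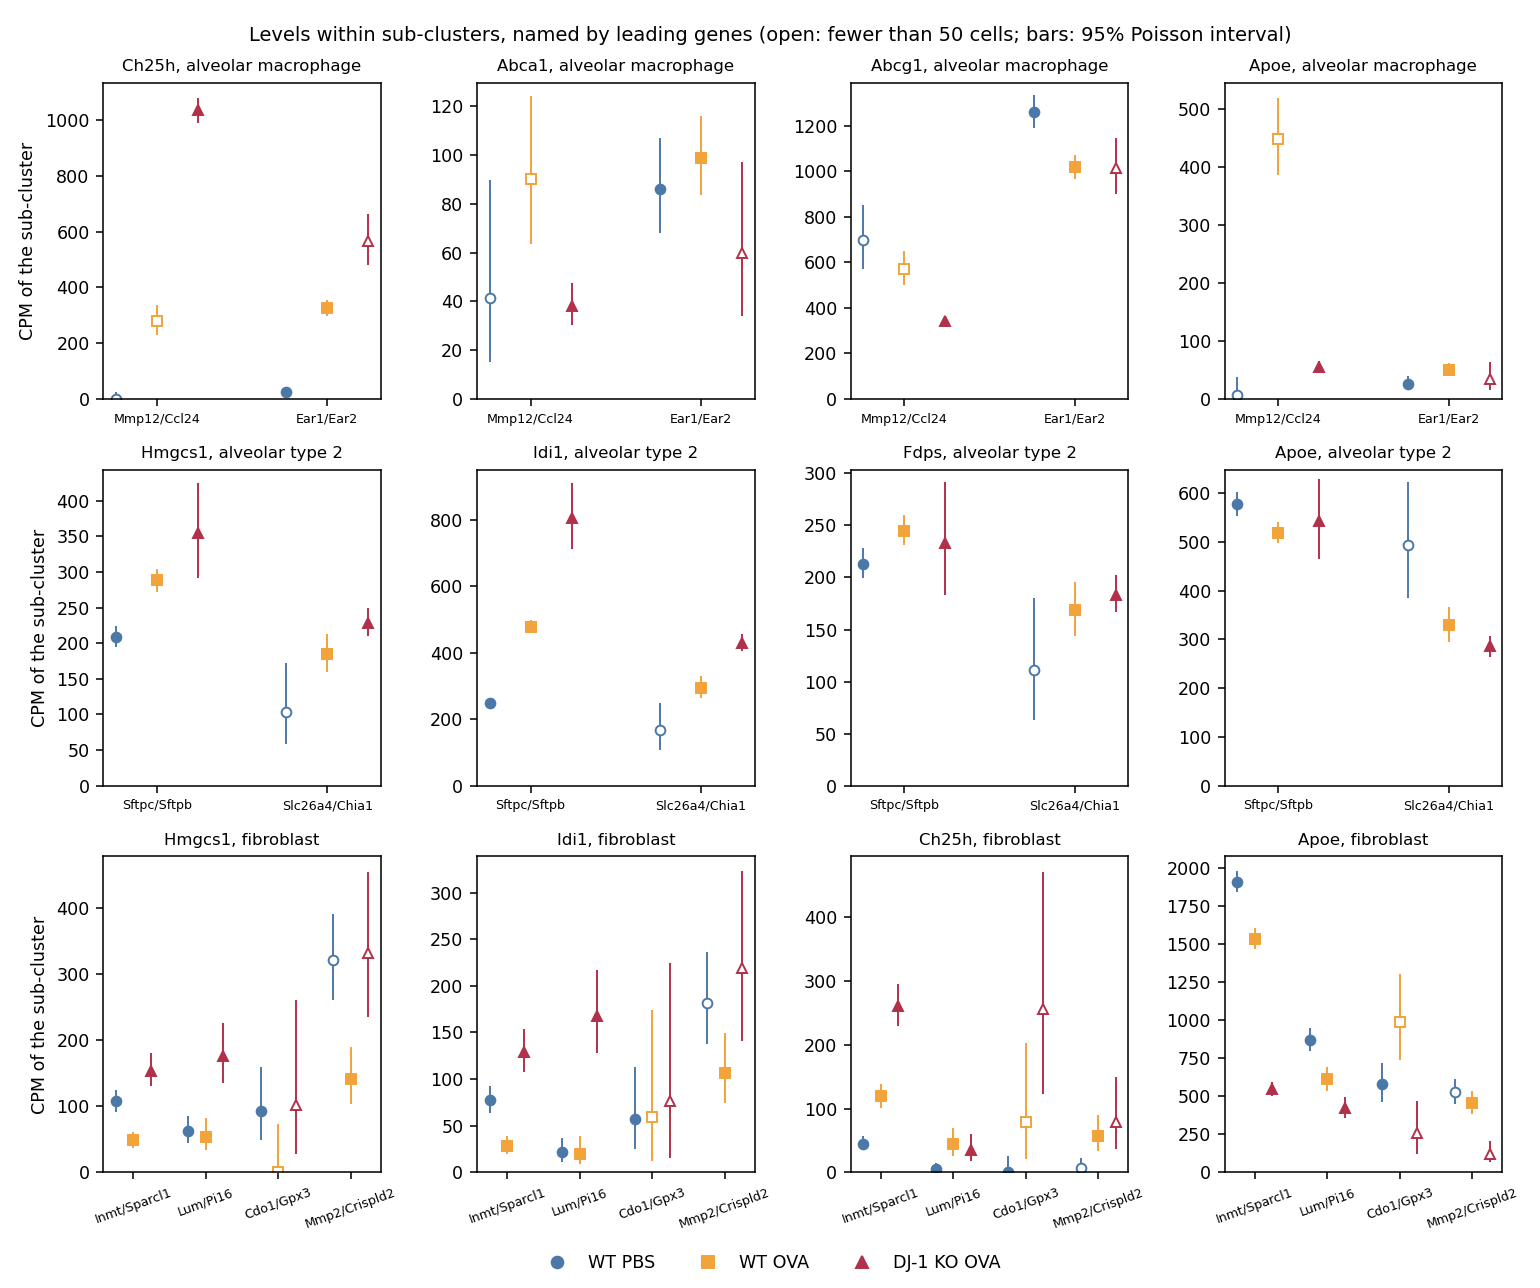
Levels in CPM (linear axes from 0) of members within sub-clusters of the 3 classes, named by their leading genes, with 95% Poisson intervals; open symbols stand for fewer than 50 cells. In type 2 cells Idi1 is 807 CPM in the Sftpc cells and 431 CPM in the Slc26a4 cells of the knockout library, and in macrophages Abcg1 is about level in the Ear1 cells of the ovalbumin libraries (1017 and 1016 CPM).

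Ch25h, which hydroxylates cholesterol to an oxysterol that restrains SREBP processing and activates LXR, had the widest span of the 8 genes in macrophages. It stood at 21.8 CPM (13.8 to 32.8, 23 UMIs) in WT PBS, 316 CPM (292 to 342, 617 UMIs) in WT OVA and 982 CPM (942 to 1022, 2321 UMIs) in the knockout library. The 3 intervals were far apart. WT OVA was 14.5-fold WT PBS (9.57 to 23.0), and the knockout library was 3.1-fold WT OVA (2.84 to 3.40), log2 ratios of 3.86 and 1.63. The first value depends on the shared barcodes: with their smaller cells kept, its log2 ratio was 2.51, and with both cells left out 3.41. Of the 23 UMIs in WT PBS, 43.5% lay in 1 cell, so the base of this ratio is thin.

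Ch25h was present in both macrophage sub-clusters of the ovalbumin libraries. In the Ear1 cells it stood at 25.3, 326 and 567 CPM and in the Mmp12 cells at 0, 280 and 1035 CPM in the 3 libraries, the 0 being that of 6 cells in WT PBS. Within the Ear1 cells WT OVA was 12.9-fold WT PBS (8.48 to 20.5). In the knockout library the level was thus higher than WT OVA in either sub-cluster, with 18 cells behind the Ear1 value. After thinning each cell to 1000 UMIs, 1.75% of macrophages in WT PBS (0.0444 to 9.39), 14.9% in WT OVA (10.1 to 21.0) and 39.1% in the knockout library (32.9 to 45.7) held a Ch25h UMI. Unthinned shares were 11.9%, 43.1% and 53.5% at median depths of 17163, 10372 and 6103 UMIs, and 2, 7 and 25 cells were too shallow to thin. In B cell-like cells of the same libraries the thinned shares were 0%, 0% and 0.439% at median depths of 2980.5, 1292 and 1104 UMIs, and 0% of 615 and of 819 cells allow up to 0.598% and 0.449%.

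Interstitial macrophages also carried Ch25h, at 57.3 CPM (13 UMIs, 30.5 to 98.1) in WT PBS, 34.4 CPM (8 UMIs, 14.9 to 67.9) in WT OVA and 306 CPM (41 UMIs, 219 to 415) in the knockout library. In the alveolar macrophage class, the 10 interstitial macrophage markers, of which 7, 9 and 9 were detected, summed to 31.3, 78.5 and 401 CPM, against 18598, 13529 and 11139.9 CPM in interstitial macrophages. Markers of conventional DC 2 summed to 1229, 1910 and 3299.7 CPM there, and their part in the Ch25h values was not tested.

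Ch25h was also counted in fibroblasts. It stood at 28.3 CPM (22.2 to 35.6) in WT PBS, 93.9 CPM (81.3 to 108) in WT OVA and 193 CPM (171 to 217) in the knockout library, and the intervals did not overlap. WT OVA was 3.32-fold WT PBS (2.53 to 4.39) and the knockout library 2.06-fold WT OVA (1.71 to 2.48). With every cell given the same weight these log2 ratios of 1.73 and 1.04 became 2.39 and 1.91. The thinned shares of fibroblasts with a UMI were 2.96%, 5.37% and 17.0% (1.36 to 5.55, 3.36 to 8.09 and 12.5 to 22.3). Unthinned they were 7.67%, 15.9% and 28.5% at median depths of 6854, 4481 and 4264 UMIs, and 35, 43 and 27 cells were too shallow. Chil3, a leading marker of alveolar macrophages here, stood in fibroblasts at 5.36, 45.3 and 156 CPM, with the same order over the libraries. In alveolar type 2 cells, where Chil3 stood at a like 3.46, 33.5 and 142 CPM, Ch25h was at 0, 0 and 2 UMIs. The part of macrophage RNA in the fibroblast values was not tested.

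The sub-clusters of fibroblasts differed in Ch25h. It stood at 44.4, 119 and 261 CPM in the Inmt cells, where the knockout library was 2.20-fold WT OVA (1.80 to 2.70). It stood at 4.95, 44.3 and 34.8 CPM in the Lum cells, where the ratio was 0.785 on 12 and 18 UMIs (0.345 to 1.72). In alveolar type 2 cells 0 Ch25h UMIs were counted in WT PBS and WT OVA, which allows levels of up to 0.741 and 0.551 CPM for 3 UMIs, and 2 UMIs in the knockout library.

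Other oxysterol genes had lower counts. Of the 10 genes of oxysterol enzymes and receptors, 6 were counted in macrophages. Of these, 2 were higher and 1 lower in WT OVA than WT PBS, and 1 was higher and 2 lower in the knockout library than WT OVA, Ch25h being among the higher genes each time. In fibroblasts 1 of 7 was higher and 0 lower in WT OVA than WT PBS, and 3 of 8 were higher and 1 lower in the knockout library than WT OVA. Cyp27a1, which makes another oxysterol in mitochondria, was the lower gene, at 45.2, 40.6 and 15 CPM in the 3 libraries. With so few genes counted, no result about the list is read from them. In type 2 cells 4 were counted, and 0 were past 1.5-fold in either comparison.

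Of the efflux genes, Abcg1 was lower in knockout macrophages under each setting tried, while Abca1 and Apoe depended on the cells kept. Abcg1, the half-transporter that hands cholesterol to lipoproteins, stood at 1183 CPM (1119 to 1251) in WT PBS, 923 CPM (881 to 967) in WT OVA and 417 CPM (391 to 444) in the knockout library. The intervals stepped down without overlap. Abca1, the transporter that loads apolipoproteins, stood at 79.7 CPM (63.6 to 98.7), 96.9 CPM (83.6 to 112) and 40.6 CPM (32.9 to 49.6), and was low in the knockout library. The knockout library held 0.452 of the WT OVA level of Abcg1 (0.418 to 0.488) and 0.419 of Abca1 (0.324 to 0.538). With Apoe these make 3 of 3 efflux members called lower, where 17.9% of 9209 genes were called lower. With both cells of every shared barcode left out, 1 of 3, Abcg1, was past 1.5-fold. For WT OVA over WT PBS the ratios were 0.780 for Abcg1 (0.725 to 0.839) and 1.22 for Abca1 (0.936 to 1.59), and neither was called, where 16.5% of 8613 genes were called lower.

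The Abca1 value rests on few UMIs in few cells, since 64.6% of its 96 UMIs in the knockout library lay in 13 cells. With both cells of every shared barcode left out, the log2 ratio of -1.26 for knockout over WT OVA became -0.37, and with cells weighted alike -0.53, neither past 1.5-fold. That of Abcg1 was -1.15, and -1.40 and -1.50 under the same settings. Within sub-clusters Abcg1 had another pattern than in the class: the Ear1 cells held 1261, 1017 and 1016 CPM, and the Mmp12 cells 699.9, 569.8 and 341 CPM. It was lower in the Mmp12 cells than in the Ear1 cells of every library. The Ear1 cells of the 2 ovalbumin libraries had overlapping intervals (968 to 1069 and 898 to 1144), and those of the Mmp12 cells (499 to 648 and 316 to 366) did not overlap.

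Apoe, the apolipoprotein that accepts exported cholesterol, was sparse in alveolar macrophages, at 23.7 CPM (15.4 to 35.0) in WT PBS, 134 CPM (118 to 151) in WT OVA and 52.4 CPM (43.6 to 62.5) in the knockout library. WT OVA was the high library, 5.64-fold WT PBS (3.74 to 8.88), and the knockout library held 0.392 of its level (0.314 to 0.487). Of the WT OVA UMIs, 81.2% lay in 9 of 188 cells, and the Mmp12 cells of that library held 448 CPM against 50 CPM in its Ear1 cells. The thinned share of macrophages with an Apoe UMI was 1.75%, 8.84% and 4.68%, under the 16.7%, 18.8% and 6.58% of B cell-like cells in the same libraries, so no expression is read from this share. The UMIs were not spread evenly over the cells, and their source was not tested. Unthinned shares were 25.4%, 19.7% and 12.7% in macrophages and 37.2%, 22.9% and 9.39% in B cell-like cells. The WT OVA over WT PBS log2 ratio of 2.50 was 1.70 once doublets were kept, and 1.47 when libraries were clustered separately. The knockout over WT OVA value of -1.35 was -0.37 with both cells of shared barcodes left out.

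Interstitial macrophages held more Apoe than fibroblasts in WT PBS and WT OVA, and in the knockout library the intervals of the 2 classes overlapped. Their level was 14919 CPM (14420.2 to 15430.2) in WT PBS, 7135 CPM (6795 to 7487) in WT OVA and 597 CPM (473 to 742) in the knockout library, from 3382, 1657 and 80 UMIs in 30, 46 and 35 cells. The 3 intervals were far apart, and C1qa, a defining marker, stood at 5964, 4732 and 4690.1 CPM in the same cells. Abca1 stood there at 348, 422 and 418 CPM, with overlapping intervals.

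In fibroblasts Apoe and Abca1 were lower in the knockout library than WT OVA. Apoe stood at 1431 CPM (1385 to 1477) in WT PBS, 1182 CPM (1136 to 1229) in WT OVA and 475 CPM (441 to 512) in the knockout library. Abca1 stood at 70.8 CPM (61.0 to 81.8), 129.8 CPM (115 to 146) and 68.3 CPM (55.6 to 83.0), so that WT OVA was high and the other libraries overlapped. The knockout library held 0.402 of the WT OVA level of Apoe (0.369 to 0.438) and 0.526 of Abca1 (0.414 to 0.664), called lower where 8.09% of 9935 genes were. For WT OVA over WT PBS, Abca1 was 1.83-fold (1.52 to 2.22), called higher where 7.46% of 10475 genes were, and Apoe 0.826 (0.785 to 0.869). Abcg1 was scarce in fibroblasts, with 4, 15 and 6 UMIs. The Inmt cells held 1908, 1535 and 545 CPM of Apoe and the Lum cells 871, 610 and 423 CPM, in the same order of libraries. The shallow Cdo1 cells had another order, with 579 CPM (460.0 to 720.0), 990 CPM (735 to 1305) and 256 CPM (123 to 471).

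In alveolar type 2 cells Apoe stood at 574 CPM (551 to 598) in WT PBS, 483 CPM (465 to 502) in WT OVA and 316 CPM (296 to 338) in the knockout library. Abca1 stood at 8.39 CPM (5.81 to 11.7), 14.5 CPM (11.5 to 18.1) and 5.56 CPM (3.11 to 9.17), and Abcg1 gave 4, 6 and 15 UMIs. Both Apoe and Abca1 were thus lowest in the knockout library, which held 0.655 of the WT OVA level of Apoe (0.606 to 0.708) and 0.383 of Abca1 (0.205 to 0.670). Within sub-clusters the Apoe difference was smaller: the ratio was 1.05 in the Sftpc cells (0.893 to 1.22) and 0.869 in the Slc26a4 cells (0.761 to 0.994), whose levels in WT OVA were 519 and 329 CPM. For Abca1 the Slc26a4 cells held 5.92 CPM in WT OVA and 6.31 CPM in the knockout library (6 and 15 UMIs), with overlapping intervals. The Sftpc cells held 16.5 CPM of Abca1 in WT OVA and 0 UMIs in the 56 cells of the knockout library (0 to 11.4 CPM), so the class ratio joins unlike cells. Abcg1 was called higher in the knockout library on 21 UMIs in all, 5.04-fold (1.85 to 15.9).

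Apoe was also lower in the knockout library in B cell-like cells, at 250.3 CPM (229 to 273) in WT PBS, 244 CPM (218 to 272) in WT OVA and 106 CPM (76.4 to 142) in the knockout library, a knockout over WT OVA ratio of 0.433 (0.307 to 0.597). This ratio was also 0.555 in monocyte-like (0.441 to 0.691), 0.462 in mesothelial-like (0.390 to 0.547) and 0.343 in neutrophil-like cells (0.122 to 0.780). In ILC2-like cells it was 1.04 on 9 UMIs (0.224 to 5.25). A lower Apoe in the knockout library was thus not particular to macrophages, fibroblasts and type 2 cells. The thinned share of fibroblasts with an Apoe UMI was 55.9%, 51.4% and 32.8% and that of type 2 cells 39.3%, 32.9% and 22.5%, above the 16.7%, 18.8% and 6.58% of the B cell-like cells. The part of RNA from outside the cell in the Apoe ratios was not tested.

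Some other genes of efflux, storage and LXR response were also lower in macrophages of the knockout library than WT OVA. Of 13 counted list genes, 4 were higher and 2 lower in WT OVA than WT PBS, and 1 was higher and 8 lower in the knockout library than WT OVA, with a median log2 ratio of -1.15. The 8 lower genes include Abca1, Abcg1 and Apoe, of which Abca1 and Apoe were not past 1.5-fold with both cells of shared barcodes left out. The Ear1 cells made up 75.5% of the class in WT OVA and 6.92% in the knockout library, and within them Abcg1 was about level (1017 and 1016 CPM). The part of this change of sub-clusters in the list counts was not tested. Scarb1, the HDL receptor, stood at 63.6, 41.0 and 18.2 CPM in the 3 libraries, Pltp, a phospholipid transfer protein, at 79.7, 46.7 and 29.2 CPM, and Lpcat3, which remodels phospholipids, at 83.5, 55.9 and 24.5 CPM. Mylip, of the uptake list, stood at 79.7, 43.6 and 11.4 CPM, so that the knockout library held 0.262 of the WT OVA level (0.163 to 0.408). The fatty acid desaturases had the opposite order, with Scd1 at 37.0, 116 and 119 CPM and Scd2 at 23.7, 70.3 and 176 CPM. The SREBP control and uptake list as a whole gave 3 higher and 3 lower of 12 in the first comparison, and 1 higher and 1 lower of 12 in the second, where over all genes 10.1% were higher and 16.5% lower, then 12.3% and 17.9%.

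The efflux counts were small in the other classes. In type 2 cells 3 of 11 were higher and 0 lower in WT OVA than WT PBS, and 1 of 12 was higher and 2 lower in the knockout library than WT OVA. Over all genes of type 2 cells, 8.43% were higher and 6.96% lower in the first comparison, and 17.8% and 8.60% in the second. In fibroblasts 3 of 12 were higher and 1 lower in the first comparison, and 2 of 12 higher and 3 lower in the second, against 7.46% and 10.00%, then 13.3% and 8.09%, of all genes. Scd1 stood in fibroblasts at 63.9, 110.4 and 113 CPM and Abca7, a relative of Abca1, at 20.3, 34.5 and 23.9 CPM. No difference between classes in these counts was tested.

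Over the 16 named classes with at least 50 cells in a library, 41 sums of a class in a library were available. Alveolar type 2 cells held the highest Hmgcs1, Idi1, Fdps and Sqle of each library. In WT OVA the next after them was alveolar macrophages for Hmgcs1 (104 CPM), whose interval overlapped that of migratory DC-like cells (93.5 CPM, 67.9 to 126). Migratory DC-like cells were the next for Idi1, at 149 CPM (116 to 188) in WT OVA and 247 CPM (199 to 302) in the knockout library. Goblet-like cells were the next for Fdps in the ovalbumin libraries, at 62.9 CPM (50.4 to 77.6) in WT OVA and 82.8 CPM (70.3 to 96.9) in the knockout library, and in WT OVA their interval overlapped that of migratory DC-like cells.

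Among these named classes, Ch25h outside alveolar macrophages and fibroblasts came to at most 8.66 CPM, that of neutrophil-like cells of the knockout library with 1.05 to 31.3. In WT PBS the order of those 2 was turned, but their intervals overlapped. B cell-like cells held the highest Abca1 of the classes with at least 50 cells, at 98.2 CPM (85.3 to 113), 163 CPM (142 to 186) and 197 CPM (156 to 245). In WT PBS their interval overlapped that of alveolar macrophages. Alveolar macrophages held the highest Abcg1 of each library, and in the knockout library the lymphocyte progenitor or thymocyte-like cells came next with 275 CPM (242 to 312). Among classes with at least 50 cells, which leaves out interstitial macrophages, fibroblasts held the highest Apoe, followed by monocyte-like cells with 1236, 809 and 449 CPM, and in the knockout library the intervals of these classes overlapped.

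**Figure D3:**
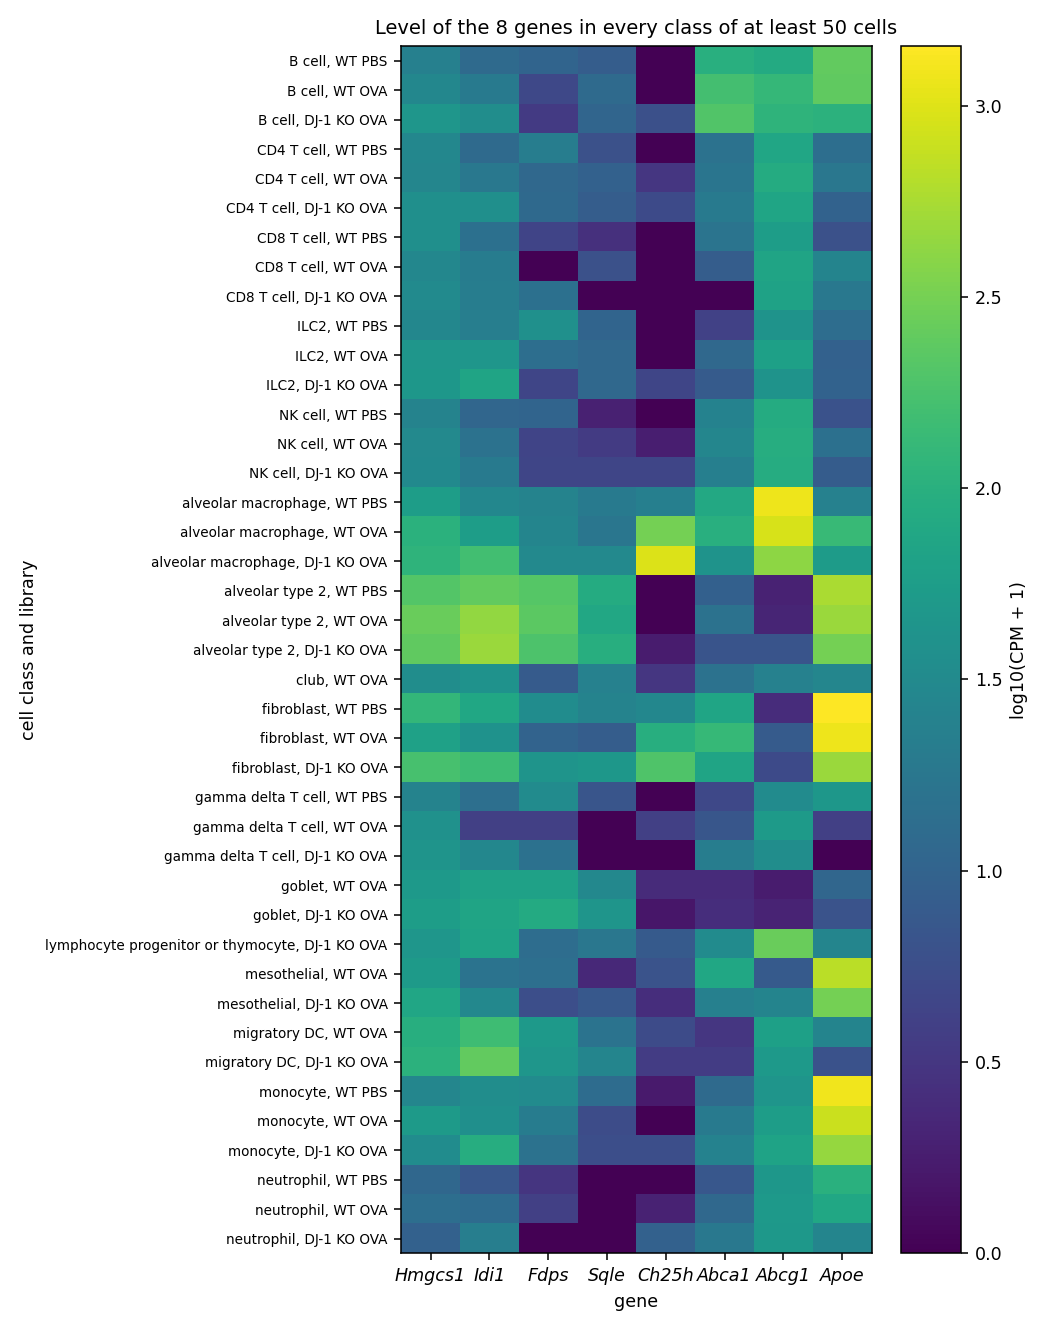
Level of the 8 genes in every named class with at least 50 cells in a library, coloured by log10(CPM + 1), with 1 row per class and library. The 4 synthesis genes are brightest in alveolar type 2 cells, Ch25h in alveolar macrophages and fibroblasts, and Abcg1 in alveolar macrophages, where it dims from 1183 to 417 CPM.

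Over these 41 sums, which share libraries, mice and depth, the likeness of other genes to 4 of the members was measured as Pearson's r of log2(CPM + 10) among 9436 genes, as a description. The genes most like Hmgcs1 were Msmo1 (r = 0.89), Anpep (r = 0.89) and Idi1 (r = 0.86), and r with Sqle and Fdps was 0.83 and 0.77. The genes most like Ch25h were Ctsk (r = 0.92), Mmp19 (r = 0.88) and Rab3il1 (r = 0.84). Those most like Abca1 were Manea (r = 0.82), Lmbrd1 (r = 0.82) and Ebf1 (r = 0.77), and those most like Apoe were Zfyve9 (r = 0.83), Zak (r = 0.82) and Csgalnact2 (r = 0.79). The 3 efflux members had little in common across classes, with r of 0.31 between Abca1 and Abcg1, 0.46 between Abca1 and Apoe and -0.31 between Abcg1 and Apoe. Ch25h and Hmgcs1 had r of 0.39.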

How the data were processed

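The authors deposited unnormalized UMI counts, 1 per gene in each barcode, from Chromium 3′ v3 libraries, per the labels' protocols. The file headers give 3.1.0 as the version of the software. The submitters' processing notes name Cell Ranger, STAR and mm10, and the annotation release is not given in the sources used here. The lowest total of a barcode is 500 UMIs. For WT PBS, the treatment label (PBS) was followed over the title, which mentions ovalbumin.

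Barcodes needed 200 genes or more and no more than 20% mitochondrial UMIs, and were taken without the smaller cell of each barcode shared by the WT PBS and knockout libraries. Scrublet in scanpy 1.11.5 (expected rate 0.06) removed doublets, 58 in the WT PBS library, 162 for WT OVA and 3, a low number, from the knockout. The libraries were clustered together without integration and without 56 sterol genes (log1p of counts scaled to 10000, 2000 variable genes, 30 components and 15 neighbours from scikit-learn 1.9.0, then Leiden at resolution 1 with igraph 0.11.9 and leidenalg 0.10.2). A cluster took its name from 36 marker lists if the mean log2 score was at least 1 and 3 markers were detected in 10% of cells. Sub-clusters come from resolution 2. CPM come from UMIs pooled over the cells of a class in 1 library. Intervals used SciPy 1.17.1, tables pandas 2.3.3 and NumPy 2.4.6, and plots matplotlib 3.10.9, under Python 3.11.15. The ratio step was tested on simulated independent Poisson counts, the model that the intervals assume. That check does not cover the uneven spread of UMIs over cells.

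The members, the 4 gene lists and the marker lists were chosen with earlier results of these data known. Named genes are the 8 members, per list, class and comparison up to 3 higher and 3 lower other genes past 1.5-fold with at least 100 UMIs, the 3 genes most like Hmgcs1, Ch25h, Abca1 and Apoe among those with at least 500 UMIs, Park7 and markers. Other named values, such as the concentration of UMIs in few cells and r between members, were chosen after they were seen. Coordinates are RefSeq's for GRCm38.p6. Values of 2 list genes are not reported here, though the list counts include them.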

Additional observations from a re-analysis of the deposited data

Results flagged for a closer look

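Some members stood past 1.5-fold in opposite directions in 2 classes under the same comparison. With 1 library per group these differences between classes were not tested. Hmgcs1 in WT OVA over WT PBS was 1.86-fold in alveolar macrophage-like cells and 0.510 of the WT PBS level in fibroblast-like cells. Idi1 in the same comparison was 2.01-fold in alveolar macrophage-like cells and 1.81-fold in alveolar type 2-like cells, against 0.517 in fibroblast-like cells. Abcg1 in DJ-1 KO OVA over WT OVA was 5.04-fold in alveolar type 2-like cells, on 15 and 6 UMIs, and 0.452 of the WT OVA level in alveolar macrophage-like cells.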

How the results depend on the processing

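No paired analysis was possible because each group is 1 library, and no replicate could be left out for the same reason. Of 130 alternative values of the 26 main results, 116 stayed within set limits and 14 moved. The limits were the 95% interval of the reported value, or 1.5 times for a list count. For the median of the 4 synthesis genes they were the medians of the 4 lower and of the 4 upper limits. Those are not a 95% interval of that median. Of 440 for the ratios of the other gene and class pairs, 419 stayed, 19 moved and 2 turned. The log2 ratio of Ch25h in macrophages was 2.51 with the smaller cells of shared barcodes kept (WT OVA over WT PBS) and 1.84 with both cells left out (knockout over WT OVA). The ratio of Abcg1 in fibroblasts for knockout over WT OVA, on 21 UMIs, turned from -0.79 to 0.11 at a 10% mitochondrial limit and to 0.04 with doublets kept. Over all lists in type 2 cells, 3 genes were lower in WT OVA than WT PBS with at least 1 UMI (0 with at least 20), and 0 and 6 were higher in the knockout library with at least 50 and at least 1 UMI (1 with at least 20). Thinned to 2000 UMIs, the shares of cells with a Ch25h UMI were 27.0% and 51.0% in macrophages of WT OVA and the knockout library and 10.2% in fibroblasts of WT OVA, above those at 1000 UMIs. In fibroblasts of WT PBS and the knockout library they were 2.94% and 16.3%, near those at 1000. Without thinning they were 11.9%, 43.1% and 53.5% in macrophages and 7.67%, 15.9% and 28.5% in fibroblasts, in the order WT PBS, WT OVA, knockout. A doublet score limit of 0.25 and values within sub-clusters were chosen after seeing the data, and the former moved 0 of 44 ratios of single genes. The cause of these moves was not tested. Depth limits Fdps and Sqle in fibroblasts, Abcg1 outside macrophages and Ch25h in WT PBS macrophages.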
